A study of Homo sapiens with 2 samples.

Results

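The 6 genes described here encode ISG15 and the enzymes that attach it to proteins and take it off again. ISG15 is the modifier, UBA7 its activating enzyme, UBE2L6 its conjugating enzyme, HERC5 the ligase, HERC6 a close relative of HERC5, and USP18 the protease that removes ISG15 from its targets. They were grouped by function, with earlier results of these data known. Every probe set (the group of short oligonucleotides that reads 1 transcript on the array) that the platform annotation assigns to these symbols was taken. This gave 8 probe sets for 6 genes, of 20031 named genes on the array. The measurements come from KG1, an established line from human acute myeloid leukaemia with the character of early progenitors. The siRNA-Tbet group received 1.98 µg of an siRNA against T-bet by electroporation, and the siRNAc group received 1.98 µg of a control siRNA. All cells then rested for 5 h and received interleukin-18 for 12 h at 10 ng/ml, so no unstimulated or untransfected cells enter the comparison. Each group is 1 Affymetrix array of total RNA from this single cell line. With 1 array a group no value has a replicate error and no test across groups exists, so each difference compares these 2 arrays and not the conditions.

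ISG15 is a ubiquitin-like protein. Its activating enzyme loads it onto the conjugating enzyme, and the ligase, which rides on ribosomes, transfers it to newly made proteins. USP18 strips it off, and apart from that activity binds the type I interferon receptor subunit IFNAR2 and dampens its signal. The genes are induced by type I interferon, largely through response elements in their promoters. T-bet, the product of TBX21, drives type 1 responses of lymphocytes, and the comparison asks which transcripts differ when it is reduced.

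The promoters of ISG15, HERC5 and HERC6 are shown because ISG15 is the modifier itself and because HERC5 and HERC6, neighbours on chromosome 4 with no protein-coding gene starting between them, had unequal ratios. The 250 bases before each annotated gene start (RefSeq, GRCh38.p14, plus strand, 5′ to 3′) are given in lower case, with the core of the interferon-stimulated response element, GAAA then any 2 bases then GAAA, in capitals wherever it occurs on either strand.
ISG15, chr1:1013247-1013496: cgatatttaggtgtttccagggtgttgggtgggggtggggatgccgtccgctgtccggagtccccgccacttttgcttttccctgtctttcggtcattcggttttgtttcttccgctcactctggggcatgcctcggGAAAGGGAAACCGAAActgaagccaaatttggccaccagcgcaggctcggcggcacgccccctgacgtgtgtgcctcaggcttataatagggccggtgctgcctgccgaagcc
HERC5, chr4:88456869-88457118: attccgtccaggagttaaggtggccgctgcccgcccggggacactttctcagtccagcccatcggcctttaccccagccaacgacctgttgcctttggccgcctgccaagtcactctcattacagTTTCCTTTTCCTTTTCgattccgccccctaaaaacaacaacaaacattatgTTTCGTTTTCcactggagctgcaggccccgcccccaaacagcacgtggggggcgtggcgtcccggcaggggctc
HERC6, chr4:88378602-88378851: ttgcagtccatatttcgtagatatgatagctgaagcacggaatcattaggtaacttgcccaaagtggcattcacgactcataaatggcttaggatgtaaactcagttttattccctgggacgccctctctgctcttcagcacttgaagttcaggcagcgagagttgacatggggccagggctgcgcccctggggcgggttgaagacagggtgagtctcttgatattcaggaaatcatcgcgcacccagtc

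ISG15 holds 2 overlapping cores on the strand of the gene, from 113 to 98 bases before the start. HERC5 holds 3 cores on the opposite strand, of which 2 overlap from 125 to 110 bases before the start and the other lies from 74 to 65 bases before it. HERC6 has no match in its window, and neither of the 2 annotated starts of UBE2L6 has one. The promoter table holds 4 of the 6 genes, and UBA7 and USP18 are not in it. The core was present in 3.02% of the 35116 windows of the same length. None of the 4 members has a match to TTCNNNGAA, the element of interferon-γ signalling (6.57% of windows), or to GGTGTGA, part of the T-box site (2.76%). All 4 have the loose kB-like pattern, GGG then any 5 bases then CC, in at least 1 window, though 1 of the 2 UBE2L6 windows has none. Counted by single windows, 54.4% have it. In HERC6 and UBE2L6 a match on 1 strand overlaps a match on the other. A match is only a run of letters and does not show binding.

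**Figure D1:**
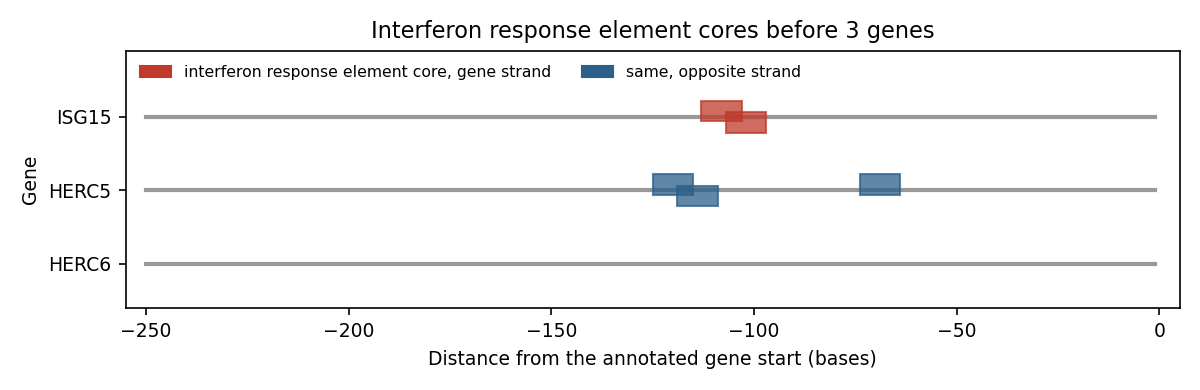
Positions of the interferon response element cores in the 250 bases before the annotated starts of ISG15, HERC5 and HERC6. The x axis is the distance from the gene start in bases and each block is 1 match of 10 bases, drawn with a vertical offset where blocks overlap. ISG15 has 2 blocks, HERC5 has 3 and HERC6 has 0.

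The arrays were of like scale, and the targeted transcript was lower on the array labelled siRNA-Tbet. The trimmed mean signal was 1000 in arbitrary MAS5 units on both arrays and their rank correlation was 0.938. TBX21 read 1839 in siRNA-Tbet cells and 3581 in siRNAc cells. Of 10 markers of KG1-type progenitors, 9 were measured, meaning brighter than the array median on at least 1 array. Of these 9, 7 were higher with siRNA-Tbet and 2 were called higher by the size defined below: GATA2 (log2 ratio 0.45, with 1.26 and 0.18 at its other probe sets) and MYB (0.35, with -0.32 at its other). CD34 had signals of 17130 with siRNA-Tbet and 15839 with siRNAc, and KIT was below both medians. Transcripts known as markers of other cell types, read here in KG1, were lower in part. Of all 12357 measured genes, 53.6% were lower by any amount, 11.0% were called lower and 7.59% called higher. Among the dimmer genes, with mean signals from 145 to 943, 20.4% were called lower. All markers called lower below lie in that dimmer range. Of the 6 natural killer cell markers, 4 were measured, all 4 were lower and 3 were called lower, with a median log2 ratio of -0.49. These were NCAM1 (-0.65, with -0.68 at its second measured probe set), KLRD1, at least 1.47-fold lower since it was under the median with siRNA-Tbet, and NCR3 (-0.42, but 0.65 and 0.50 at its other probe sets). NKG7, at -0.10, carried most of their summed signal of 13441 in siRNA-Tbet and 14860 in siRNAc cells, and GNLY and NCR1 were below both medians. Of the 9 markers of monocytes and plasmacytoid dendritic cells, 5 were measured, 4 were lower and 2 were called lower, LYZ (-0.50) and CSF1R (at least 1.52-fold), with a median of -0.22. Their sum of 27321 with siRNA-Tbet and 27702 with siRNAc was mostly S100A8 and S100A9, and CD14, FCN1, CLEC4C and LILRA4 were below both medians. T cell markers summed to 16807 in siRNA-Tbet and 14882 in siRNAc cells, almost all of it CD3D. CD2, which T and natural killer cells share, was called lower at 339 in siRNA-Tbet and 663 in siRNAc cells (-0.97), a larger difference than that of any member, and CD3G, CD5 and CD8A were below both medians. B cell markers summed to 1989 in siRNA-Tbet and 1888 in siRNAc cells, with 1 of 3 measured, MS4A1, called lower. Erythroid markers summed to 436 in siRNA-Tbet and 319 in siRNAc cells, and HBB, the only one measured, was called higher at 0.58 but had -0.51 and -0.47 at its other measured probe sets. All of this RNA came from the single KG1 line. These values are therefore transcripts of that line and not counts of other cell types. Whether their differences have a part in the results below was not tested. In bulk RNA, fewer KG1 cells expressing a gene and less of its RNA per cell cannot be told apart.

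The system divided evenly, with 3 of its members lower in siRNA-Tbet cells and 3 close to the control. HERC5, USP18 and UBA7, the ligase, the deconjugase and the activating enzyme, were each 25.3% to 31.3% lower. ISG15 was 8.36% lower, and UBE2L6 and HERC6 had nearly the same signal on both arrays. A difference was called when the siRNA-Tbet signal was at least 20% below, or at least 25% above, the siRNAc signal, which is the same ratio in each direction. By that size 3 of 6 members were called lower and 0 were called higher, where 11.0% of the 12357 measured genes were called lower and 7.59% higher. The members and this size were chosen with earlier results of these data known. The shares of other genes given here are therefore a description and not an independent test of the members. Noise is larger for dim genes, and among the 7324 genes at least as bright as the dimmest member 4.70% were called lower. The 3 called members share a signal decile in which 9.22% of genes were called lower. Of the 6 members, 5 were lower by any amount, as were 53.6% of all measured genes. The median log2 ratio of siRNA-Tbet over siRNAc was -0.27 over the members and -0.02 over all measured genes.

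**Figure D2:**
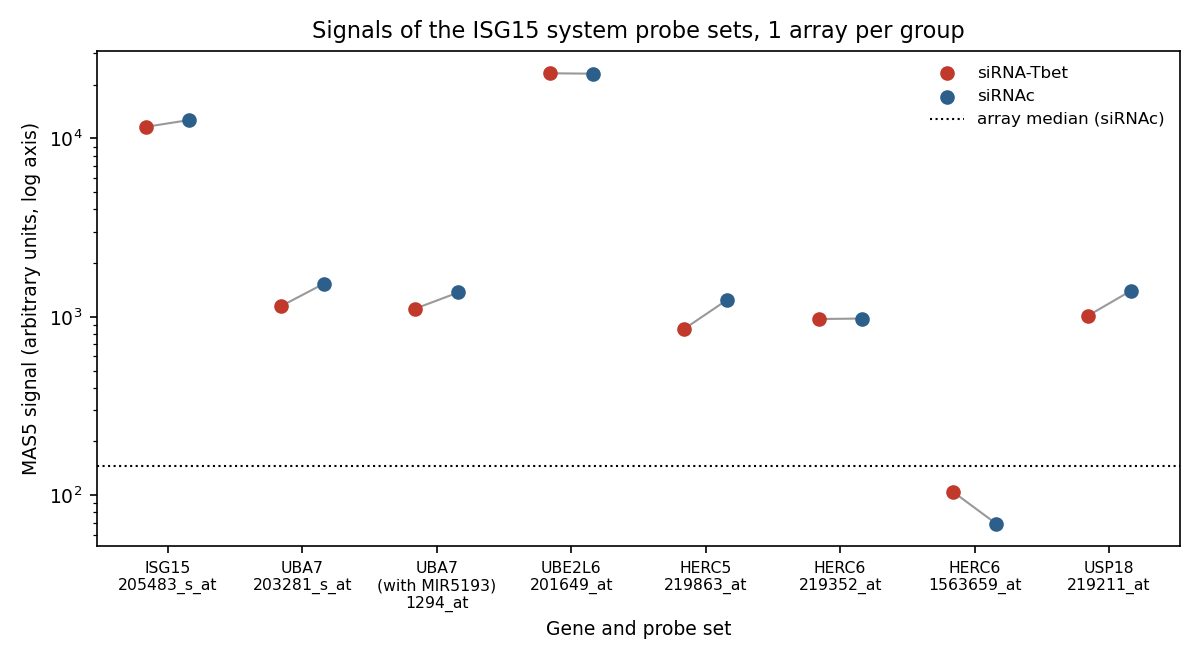
MAS5 signals (y axis, arbitrary units, log scale) of the 8 probe sets of the ISG15 system, with the siRNA-Tbet array in red on the left of each pair and the siRNAc array in blue on the right. The dotted line is the siRNAc array's median of 146. HERC5, USP18 and both UBA7 probe sets slope up to the siRNAc point, UBE2L6 and the brighter HERC6 probe set are level, and the second HERC6 probe set lies below the line.

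The modifier itself was among the brightest transcripts. ISG15, on its only probe set, read 11634 in siRNA-Tbet cells and 12694 in siRNAc cells, a log2 ratio of -0.13. The technical spread, taken as the SD between ratios of different probe sets of 1 gene, was 0.12 on the log2 scale at that signal, so the difference was about the size of this spread. Among the 1236 genes of its signal decile, the brightest, the median log2 ratio was 0.04 and the 10th percentile was -0.11. ISG15 lay just below that 10th percentile, at rank 95 counted from the lowest ratio. Only 0.324% of that decile was called lower. Signals this high can be compressed on arrays, which makes differences look smaller.

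UBA7, the activating enzyme that starts the cascade, was lower on both of its probe sets. The platform annotation gives both to UBA7 together with MIR5193, a microRNA gene that lies inside UBA7 on chromosome 3. The brighter probe set is listed under a RefSeq transcript of UBA7 and was named by it. It read 1146 in siRNA-Tbet cells and 1534 in siRNAc cells, 1.34-fold lower (log2 ratio -0.42). The second could not be tied to 1 of the 2 genes and was left out of the counts. It read 1112 in siRNA-Tbet cells and 1370 in siRNAc cells, a log2 ratio of -0.30, which at 18.8% lower misses the size for a call. The call of UBA7 thus rests on 1 of 2 probe sets of like brightness. Their log2 ratios differed by less than the technical spread of 0.22 at that signal. Without UBA7, 2 of 5 members were called lower and the median of the members was -0.13.

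UBE2L6, the enzyme that carries activated ISG15 to the ligase, had nearly equal signals. Its only probe set read 23211 in siRNA-Tbet cells and 23084 in siRNAc cells, a log2 ratio of 0.01 where the technical spread was 0.12. The siRNA-Tbet array was higher by 0.550%. Its decile had a median of 0.04, so relative to genes of like brightness UBE2L6 lay slightly on the low side. Compression at the top of the scale may affect it as it may ISG15, and this was not tested.

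The pair of HERC genes split. HERC5, the main human ISG15 ligase, read 855 in siRNA-Tbet cells and 1246 in siRNAc cells on its only probe set. This was 1.46-fold lower, the largest difference among the members (log2 ratio -0.54, technical spread 0.25). Counted from the lowest ratio it stood at rank 25 of the 1236 genes of like signal (decile 5), of which 9.22% were called lower. HERC6, its neighbour, which serves as the ISG15 ligase in mouse, read 972 in siRNA-Tbet cells and 978 in siRNAc cells on its brighter probe set, a log2 ratio of -0.01. Both genes lie in the same signal decile. Their log2 ratios differed by -0.53 (HERC5 minus HERC6), or 1.48 times the combined technical spread of 0.36. A single scaling factor for an array cancels out of this difference. The second HERC6 probe set read 104 in siRNA-Tbet cells and 69.2 in siRNAc cells. Both lie below the array medians of 144 and 146, so it was not counted as measured.

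USP18 closes the cycle by removing ISG15 and by limiting interferon signalling. Its only probe set read 1011 in siRNA-Tbet cells and 1395 in siRNAc cells, 1.38-fold lower (log2 ratio -0.46, technical spread 0.22). Its rank from the lowest was 40 in the decile it shares with HERC5, UBA7 and HERC6. The log2 ratios of HERC5, USP18 and UBA7 differed from each other by at most 0.12, well under their combined technical spreads of 0.32 to 0.34. Against UBE2L6, by contrast, their ratios were lower by 0.43 to 0.55, or 1.69 to 1.96 times the combined spread. No pair of the 15 member pairs differed by more than 1.96 times its combined spread, which covers technical noise of probe sets and leaves out variation between cultures. Human USP18 has the near-identical relative USP41. The annotation gives the USP18 probe set to USP18 alone, and no probe set was named for USP41. Whether the USP18 probe set also reads USP41 was not tested.

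**Figure D3:**
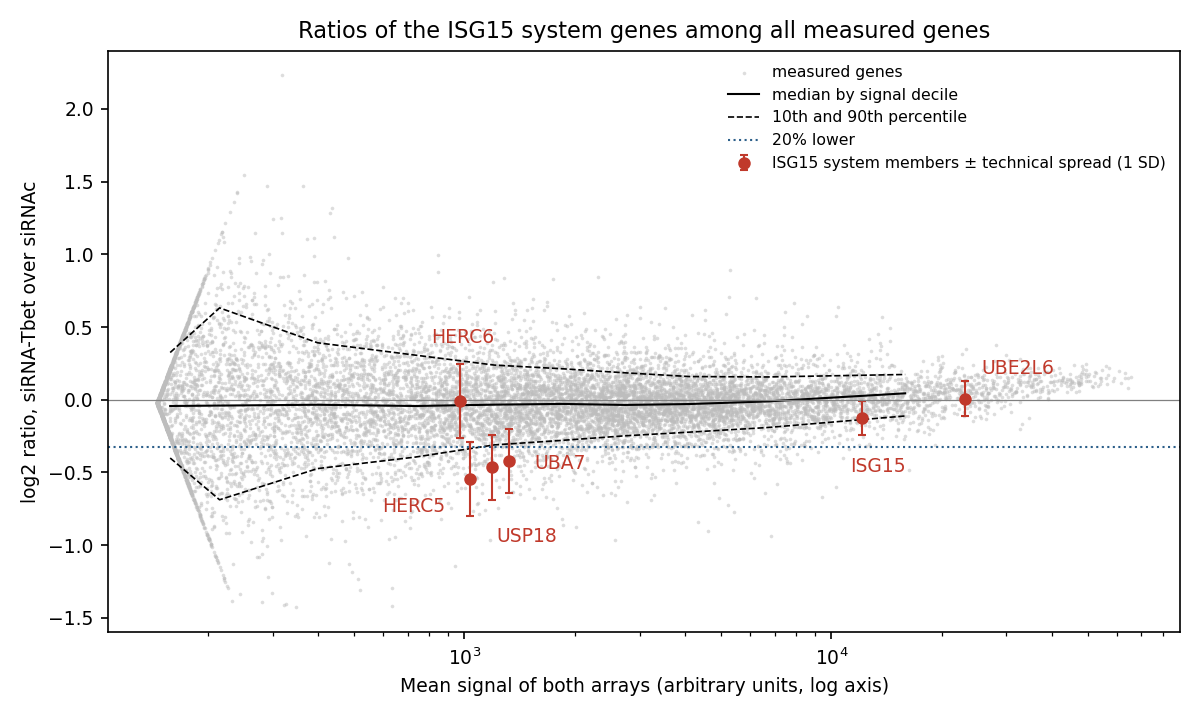
log2 ratio of siRNA-Tbet over siRNAc (y axis) against the mean signal of both arrays (x axis, arbitrary units, log scale) for 12357 measured genes in grey, with the median and the 10th and 90th percentiles of each signal decile as lines. The 6 members are red with bars of 1 technical SD. HERC5 (-0.54), USP18 (-0.46) and UBA7 (-0.42) lie below the dotted line at 20% lower, and HERC6 (-0.01), at a like signal, lies near 0.

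Other enzymes reported to ligate or cleave ISG15 had log2 ratios nearer 0 on the probe sets chosen to represent them, though not on all. Of the 9 in that list, 8 were measured, and 0 were called in either direction. Their median log2 ratio was 0.07, with 6 higher and 2 lower. TRIM25, an ISG15 ligase and activator of RIG-I, had 4956 with siRNA-Tbet and 4965 with siRNAc on its brighter probe set but a log2 ratio of -0.62 on the other. ARIH1, a ligase of the ariadne family, had a log2 ratio of 0.11 and from -0.32 to 0.48 at its other 5 probe sets. USP5 had 732 with siRNA-Tbet and 853 with siRNAc and was the lowest of the list at -0.22. USP16, USP14, USP24, USP21 and USP13 are proteases of the same family as USP18. On the probe sets chosen they had log2 ratios from 0.03 to 0.12. Their other probe sets ran from -0.59 (USP24, which also had -0.17) to 0.38 (USP14). The brightest probe sets of USP16 and USP21, passed over as cross-hybridising, had 0.06 and -0.03. USP2 was below the array median on both arrays.

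Of the 6 measured relatives of the members that handle ubiquitin, 0 were called lower and 1, HERC3, was called higher. UBA1, which activates ubiquitin, had 15919 with siRNA-Tbet and 16521 with siRNAc, a log2 ratio of -0.05, and -0.11 at its second probe set. UBA6, which activates ubiquitin and FAT10, had -0.12 on its brightest probe set and up to 0.43 on the others. Among the large and small HERC proteins, HERC1 had -0.10, HERC2 had -0.30 on 1 probe set and 0.54 on the other, and HERC4 had 0.09 on its brightest probe set and -0.04, 0.66 and 0.80 on the others. HERC3, another small HERC protein, was dim but passed the fold, reading 200 in siRNA-Tbet cells and 136, which is under the median, in siRNAc cells. The 6 measured E1 enzymes of ubiquitin-like proteins had a median of -0.08 and 0 were called, with SAE1 at -0.15 the lowest and NAE1 at 0.03 the highest. The 8 modifiers themselves had a median of 0.02 and 0 were called. UBD, the interferon-inducible modifier FAT10, was the highest at 0.26 (2227 with siRNA-Tbet and 1865 with siRNAc), so it lay on the side opposite to ISG15, and URM1 was the lowest at -0.17.

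The receptor and factors that switch these genes on had log2 ratios nearer 0 than HERC5, USP18 and UBA7. This holds on the probe sets chosen to represent them, and not on all. Of 7 measured genes 0 were called, 5 were lower and 2 were higher, and the median log2 ratio was -0.04. IRF9, the DNA-binding subunit of the interferon-induced complex ISGF3, had 3890 with siRNA-Tbet and 3952 with siRNAc. IRF7 had 3708 with siRNA-Tbet and 3955 with siRNAc, a log2 ratio of -0.09. IRF1, which can induce these genes directly, had 8589 with siRNA-Tbet and 9508 with siRNAc (log2 ratio -0.15), with 0.11 at its second probe set. TYK2 and JAK1, the kinases at the receptor, had log2 ratios of -0.04 and 0.02. IFNAR2, to which USP18 binds, had 0.04, and its other 2 probe sets had -0.13 and -0.26, while the 4 probe sets of IFNAR1 ran from -0.21 to 0.61. Of 19 type I and type III interferon genes, 17 were below the array median on both arrays, IFNB1 among them. The exceptions were IFNA17 and IFNL1. IFNA17 read 238 in siRNA-Tbet cells and 288 in siRNAc cells, a log2 ratio of -0.28. IFNL1 read 146 in siRNA-Tbet cells and 244 in siRNAc cells. It was called lower at -0.74, a larger difference than that of any member. Both genes lie in the dimmest range, where the technical spread was 0.41.

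ISG15 is also released from cells and then acts on lymphocytes through the integrin LFA-1, where it promotes interferon-γ secretion. ITGAL and ITGB2, the subunits of LFA-1, had log2 ratios of -0.17 and -0.02, with -0.09 and 0.06 at their second measured probe sets. IFNG had 31243 with siRNA-Tbet and 35136 with siRNAc, a log2 ratio of -0.17. IL12RB1, a receptor chain for interleukin-12, had -0.31 on its brightest probe set and 0.01 and -0.62 on the others, and IL12RB2 was below the array median on both arrays. SKP2, which marks USP18 for degradation, had 1564 with siRNA-Tbet and 1397 with siRNAc (log2 ratio 0.16, technical spread 0.20). Its other probe sets had 0.13 and -0.15. The one at -0.15, passed over as cross-hybridising, was brighter, with 5396 in siRNA-Tbet and 5987 in siRNAc cells. The probe sets of SKP2 thus lay on both sides of 0. The SRC-family kinase LYN had 0.02. None of the 6 measured genes of this list was called.

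Genes of proteins described as ISG15 targets lay on both sides of 0. Of 15 measured substrates, 1 was called lower and 0 higher, and the median log2 ratio was 0.03. The called gene was IFIT1, an RNA-binding antiviral protein, with 2740 in siRNA-Tbet and 3966 in siRNAc cells (log2 ratio -0.53). CHMP5, of the membrane-remodelling machinery ESCRT, followed at -0.31 with -0.43 at its second probe set. MX1, an antiviral GTPase, read 60.9, below the median, in siRNA-Tbet cells and 178 in siRNAc cells, so only a ratio of at least 1.24-fold lower can be given. The highest were UBE2E1, a conjugating enzyme of ubiquitin, at 0.27, MAPK3, the kinase ERK1, at 0.19 and EIF4E2, a cap-binding protein, at 0.16.

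The other type I interferon-stimulated genes gave the nearest comparison. Of 48 measured genes in this list, 39 were lower and 9 higher, 9 were called lower and 0 called higher, and the median log2 ratio was -0.12. The lowest were IFIT2, an antiviral protein (2532 with siRNA-Tbet and 4084 with siRNAc, log2 ratio -0.69), RTP4, a chaperone of receptors (1044 with siRNA-Tbet and 1658 with siRNAc, -0.67), and HELZ2, a helicase (306 with siRNA-Tbet and 473 with siRNAc, -0.63). The second measured probe sets of IFIT2 and HELZ2, at -0.28 and -0.03, would not have been called. The highest were LGALS9, DDX60L and IFITM2, at 0.30, 0.13 and 0.12. The called share was 18.8% in this list, beside 3 of the 6 members, and that difference was not tested. In the brightest decile, where ISG15 and UBE2L6 lie, 11 of these genes were measured, 0 were called and their median was -0.0046. In decile 5, with HERC5, HERC6, UBA7 and USP18, only 3 were measured (IFI6, PARP10 and RTP4), all 3 were lower and 1 was called. In deciles 6 to 9, 26 of 29 were lower and 7 were called, where 4.76% of all genes of these deciles were called lower.

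**Figure D4:**
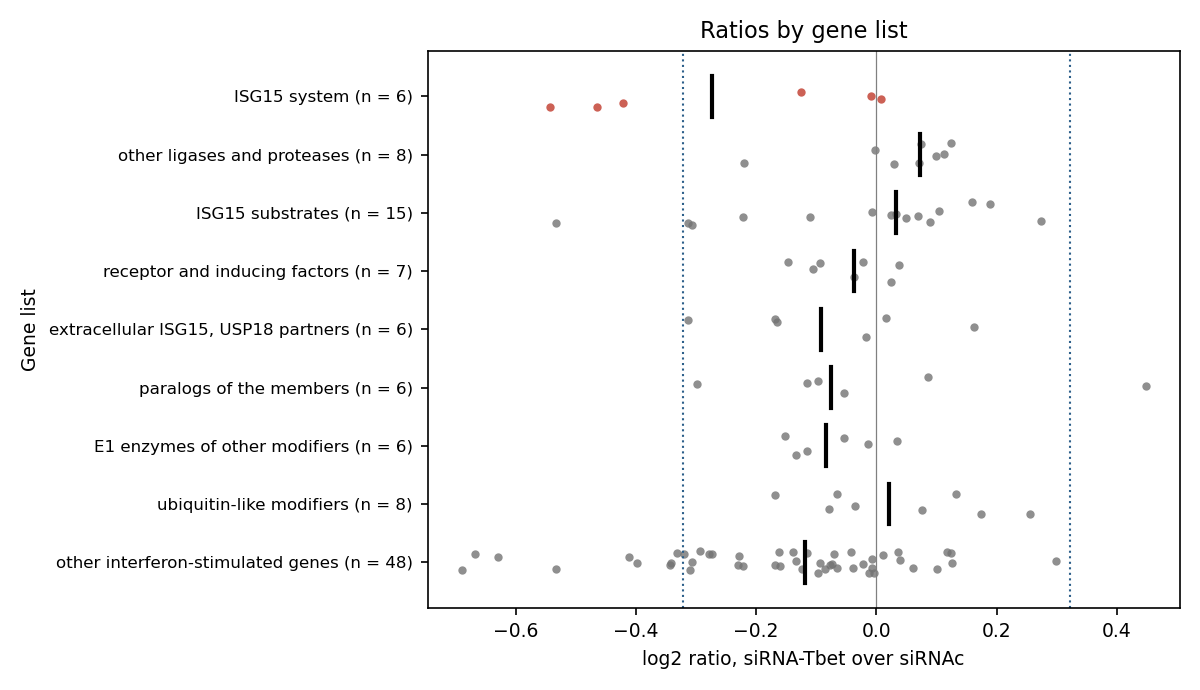
log2 ratios of siRNA-Tbet over siRNAc (x axis) for the measured genes of 9 lists (rows, with n), 1 dot a gene with vertical jitter, and a black bar at each list's median. The dotted lines mark 20% lower and 25% higher. The ISG15 system has its median at -0.27 with 3 genes near 0, the other interferon-stimulated genes have theirs at -0.12, and the lists of enzymes and modifiers centre between -0.08 and 0.07.

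Among the other interferon-stimulated genes that were measured and had a promoter window, 25 held the interferon response element core and had a median log2 ratio of -0.14, with 4 called lower, and 14 lacked it and had a median of -0.09, with 3 called lower. Over all measured genes with a window, 12.7% of the 354 with the core were called lower, against 10.3% of the 9688 without it. Within the ISG15 system, HERC5 (-0.54) and ISG15 (-0.13) hold the core, and UBE2L6 (0.01) and HERC6 (-0.01) lack it in these windows. This grouping was made after the values were seen and covers 4 genes.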

How the data were processed

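Total RNA of siRNA-Tbet and siRNAc cells was read on 1 array each. The authors deposited linear signal intensities made with MAS5, per the submitters' processing notes, with no version stated there. MAS5 subtracts mismatch signal, which makes dim intensities noisy. Detection calls and scanner files were not used here.

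Of 54675 probe sets, 41097 had 1 annotated gene, 388 with several were settled by a matching RefSeq transcript accession, 1413 with several were left out and 11777 were unnamed. Symbols follow RefSeq (GRCh38.p14). Signals below an array's median (144 for siRNA-Tbet, 146 for siRNAc, without the 62 control probe sets) were raised to it. Each gene was represented by the probe set brightest on average, with cross-hybridising ones (_x_at) used only where no other exists. The technical spread is the SD, over genes, of the gap between the ratios of a gene's 2 brightest probe sets (log2 scale), divided by the square root of 2, in 10 signal bins of 6203 genes. No p-value was computed; the number of arrays limits precision. Named were the members, TBX21, IFNG, the short lists of partners in full, and up to 3 genes at each end of the longer lists. Members, lists and thresholds were chosen with earlier results of these data known. The procedure was run on simulated arrays with known shifts and noise of the technical spread. Only medians over groups of genes were checked there. That cannot show how reliable the call of a single gene is, and it leaves out variation between cultures. Alternatives were other scalings, floors, probe set choices and folds. Python 3.11.15, pandas 2.3.3 and statsmodels 0.14.6 were used.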

Additional observations from a re-analysis of the deposited data

How the results depend on the processing

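The 3 members called lower stayed 3 under median scaling, quantile normalization, removal of the lowess trend and a fold of 1.1, and were 0 with a fold of 1.5. The other floors and the median over probe sets say nothing about the members' stability, since all 6 lie above the floors, apart from HERC5 at the 75th percentile (-0.47), and each has 1 named and measured probe set. With a fold of 1.5, 2.96% of all measured genes were called lower, and with 1.1, 28.2%. The share called over all measured genes followed the floor, with 18.9% at the 25th percentile, 4.54% at the 75th and 22.4% with none. The second-brightest probe set was also taken with cross-hybridising ones ranked last. The other interferon-stimulated genes called lower were 2 of 26 with the second-brightest probe set, 3 of 48 with a fold of 1.5 and 22 of 48 with 1.1. With the second-brightest probe set the median of the other ligases and proteases was -0.03, and 1 of 7 was called lower. That choice gave no value for the members, since none has a second measured and named probe set. The members' median log2 ratio ran from -0.28 to -0.25. HERC5, USP18, UBA7 and ISG15 stayed below 0 under the 3 other scalings. UBE2L6 was below 0 under 2 of these 3 and HERC6 above 0 under 2 of 3. No paired analysis was possible because each group holds 1 array. HERC5, USP18, ISG15 and UBE2L6 each rest on 1 probe set, and signals above those of most genes may be compressed.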
